A study of Mus musculus with 12 samples.

Results

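Secretory leukocyte protease inhibitor (Slpi) and 6 genes of the acute-phase and antimicrobial response, Saa3, Hp, Lcn2, Wfdc17, Ptx3 and Lrg1, were followed by RNA-seq in CD115+ monocytes of mice. These 7 genes were picked by symbol out of 52553 features in the count tables, of which 20135 passed the filter on low counts. Slpi was picked because of its rise after resection in blood, so its blood values chose it, and the other genes were picked to see whether they followed it. Passing the filter left 6 of the 7, and Ptx3 did not pass.

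Monocytes were taken from the spleen or the peripheral blood of male C57BL/6 mice with an intact spleen. The mice were either labelled intact, with no operation named, or at 24 h from a resection of 70% of the liver (resected). A density gradient for mononuclear cells, meant to deplete granulocytes, came first. The cells were then sorted with magnetic beads against CD115, the receptor encoded by Csf1r. Each of the 4 groups (spleen intact, spleen resected, blood intact, blood resected) had 3 libraries, and each library pooled cells of 5 mice. The labels of these groups name neither a sham operation nor splenectomy. From them the effects of the wound, the anaesthesia and the lost liver mass cannot be told apart.

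The libraries held 36990033 to 46401368 estimated counts. Csf1r, the sorted receptor, averaged 453 and 898 CPM in intact and resected spleen and 346 and 666 CPM in intact and resected blood, where CPM is the count of a gene for every 1000000 counts of the scaled library. Monocyte markers summed to 1627 to 2158 CPM in intact and 3210 to 3635 CPM in resected spleen. In blood they summed to 1273.5 to 2702 CPM in intact and 4318 to 7016 CPM in resected mice. The 10 markers went both ways there, with log2 fold changes from -2.20 to 2.58 after resection. Haemoglobin genes took 13.2% to 34.2% of the gene counts in blood libraries against 0.0814% to 3.47% in splenic ones. B-cell markers summed to 3410 to 3860 CPM in intact and 963 to 3089 CPM in resected spleen, and to 426 to 1885 CPM in intact and 601 to 1450 CPM in resected blood. In blood platelet markers went from 77.4 to 282 CPM in intact to 792 to 881 CPM in resected mice, and T-cell markers from 350 to 767 CPM to 68.8 to 128 CPM, without overlap. The 5 platelet markers differed in this, with log2 fold changes from 0.40 to 3.71 and a median of 0.97. Of them 1 was called higher in blood after resection, against 7.80% of all features. In bulk RNA a change in the share of a cell type and a change in RNA per cell cannot be told apart, which holds for every value given here.

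Acute-phase proteins are secreted in quantity after injury or infection, classically by hepatocytes under interleukin-6 and interleukin-1, with C/EBP, STAT3 and NF-kB factors acting on their promoters. Several of them are also made by myeloid cells, where they bind iron or haemoglobin, coat microbes or restrain proteases. Slpi and Wfdc17 belong to the whey acidic protein (WAP) family of small secreted inhibitors. Slpi blocks neutrophil elastase and cathepsin G and has antimicrobial activity. Saa3 is the serum amyloid A made outside the liver, among others by macrophages. Haptoglobin (Hp) binds free haemoglobin, lipocalin 2 (Lcn2) binds bacterial siderophores and is stored in neutrophil granules, Ptx3 is a soluble pattern recognition molecule, and Lrg1 is a leucine-rich glycoprotein made by liver and neutrophils.

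The promoters of the 7 genes were searched because 6 of them, all but Ptx3, were high together in resected blood. Ptx3 had at most 5 counts in any library. RefSeq promoter entries (GRCm38.p6) were found for 6 of the 7 genes, all but Hp. In the 250 bases before the annotated start, the C/EBP-type motif TTGCNNAA, searched on both strands, occurred in 4 of these 6, Slpi, Saa3, Lcn2 and Ptx3, and it occurred in 9.56% of 32851 mouse promoters. Neither Wfdc17 nor Lrg1 held these letters. The letters GGGNNTTCC (NF-kB), TTCNNNGAA (STAT) and TATAAA (the core promoter box), also on both strands, occurred in none of the 6 windows, and in 4.98%, 7.02% and 12.4% of all promoters. A match is a description of the sequence, not a bound site. The 4 windows that hold the motif follow, each 5′ to 3′ on the strand of its gene, with the matched letters in capitals. They lie at chr2:164356508-164356757 (minus strand) for Slpi, chr7:46715677-46715926 (minus strand) for Saa3, chr2:32387740-32387989 (minus strand) for Lcn2 and chr3:66219637-66219886 (plus strand) for Ptx3.
Slpi: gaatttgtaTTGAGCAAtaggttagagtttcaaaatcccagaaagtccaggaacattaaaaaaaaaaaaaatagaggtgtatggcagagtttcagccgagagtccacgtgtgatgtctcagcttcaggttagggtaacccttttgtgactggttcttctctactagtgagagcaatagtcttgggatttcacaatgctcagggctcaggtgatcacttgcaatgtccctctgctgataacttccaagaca
Saa3: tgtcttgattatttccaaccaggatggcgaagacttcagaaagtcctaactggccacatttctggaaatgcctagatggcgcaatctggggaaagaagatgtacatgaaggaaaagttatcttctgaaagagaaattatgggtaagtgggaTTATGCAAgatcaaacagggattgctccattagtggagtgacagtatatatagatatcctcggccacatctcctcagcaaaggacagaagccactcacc
Lcn2: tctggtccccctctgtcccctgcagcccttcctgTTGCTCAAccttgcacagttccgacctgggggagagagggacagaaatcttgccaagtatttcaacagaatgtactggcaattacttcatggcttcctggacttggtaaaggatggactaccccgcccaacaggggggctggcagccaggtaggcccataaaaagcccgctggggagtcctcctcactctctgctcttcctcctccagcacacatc
Ptx3: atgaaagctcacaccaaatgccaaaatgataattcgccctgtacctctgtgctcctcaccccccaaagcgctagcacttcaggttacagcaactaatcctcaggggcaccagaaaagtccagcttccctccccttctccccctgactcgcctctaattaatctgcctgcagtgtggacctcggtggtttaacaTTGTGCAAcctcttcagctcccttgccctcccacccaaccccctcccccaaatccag
The match began 241 bases before the start in Slpi, 216 bases before it in Lcn2, 99 bases before it in Saa3 and 57 bases before it in Ptx3.

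Intact splenic libraries had 94.4, 106 and 124 CPM of Slpi mRNA, and resected splenic libraries had 347, 399 and 395 CPM. In blood it stood at 105, 54.0 and 73.6 CPM in intact mice and at 2410, 2923 and 2759 CPM after resection. The resected libraries lay above the intact ones in both tissues without overlap, and the resected blood libraries lay apart from all other 9. The group means were 108 ± 14.7 CPM and 380 ± 28.9 CPM in intact and resected spleen and 77.6 ± 25.8 CPM and 2697 ± 262 CPM in intact and resected blood (SD, n = 3). In blood this was a 34.8-fold difference (log2 fold change 5.12, SE 0.27), given as a description since it chose the gene.

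In splenic monocytes Slpi rose 3.52-fold after resection (log2 fold change 1.82, SE 0.24, edgeR quasi-likelihood test, Benjamini-Hochberg adjusted p = 0.018). Slpi was chosen by its blood values, but with earlier results of these data known. The fit also shares its estimate of the spread over all 12 libraries, so the splenic call is not fully independent of the choice. The call was lost without intact spleen library 1 (adjusted p = 0.123) or library 2 (adjusted p = 0.114) and without resected spleen library 3 (adjusted p = 0.0551), while the log2 fold change stayed between 1.73 and 1.92 when any 1 library was left out. The resection effect in blood exceeded that in spleen by 3.30 on the log2 scale (SE 0.33), again as a description.

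Wfdc17, the other WAP inhibitor among the 7 genes, behaved more evenly between the tissues. Its levels were 16.6, 20.4 and 11 CPM in intact spleen, 113, 106 and 270 CPM in resected spleen, 61.3, 40.5 and 73.7 CPM in intact blood, and 510, 518 and 805 CPM in resected blood. Each group lay apart from the others, in the order intact spleen, intact blood, resected spleen, resected blood. In spleen Wfdc17 rose 10.2-fold (log2 fold change 3.35, SE 0.44, edgeR, adjusted p = 0.018), a call lost without intact spleen library 1 (adjusted p = 0.123) or library 2 (adjusted p = 0.0926). In blood the resected libraries were 10.4-fold above the intact ones (log2 fold change 3.39, SE 0.44, a description), so that the effects in the 2 tissues differed by 0.04 (SE 0.57). Wfdc17 was also higher in blood than in spleen, by 1.87 (SE 0.41, edgeR, adjusted p = 0.0237) in intact mice and by 1.91 (SE 0.41, edgeR, adjusted p = 0.0122) after resection. Tests between the tissues, here and for the genes below, use the blood libraries on which the choice of genes drew. They are therefore not independent of that choice. The intact difference was lost without any 1 of the intact spleen libraries or intact blood library 1 (adjusted p from 0.0513 to 0.0794). Without resected spleen library 3 the resection effect in spleen was 2.77 (SE 0.34) and the tissue difference after resection was 2.58.

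**Figure D1:**
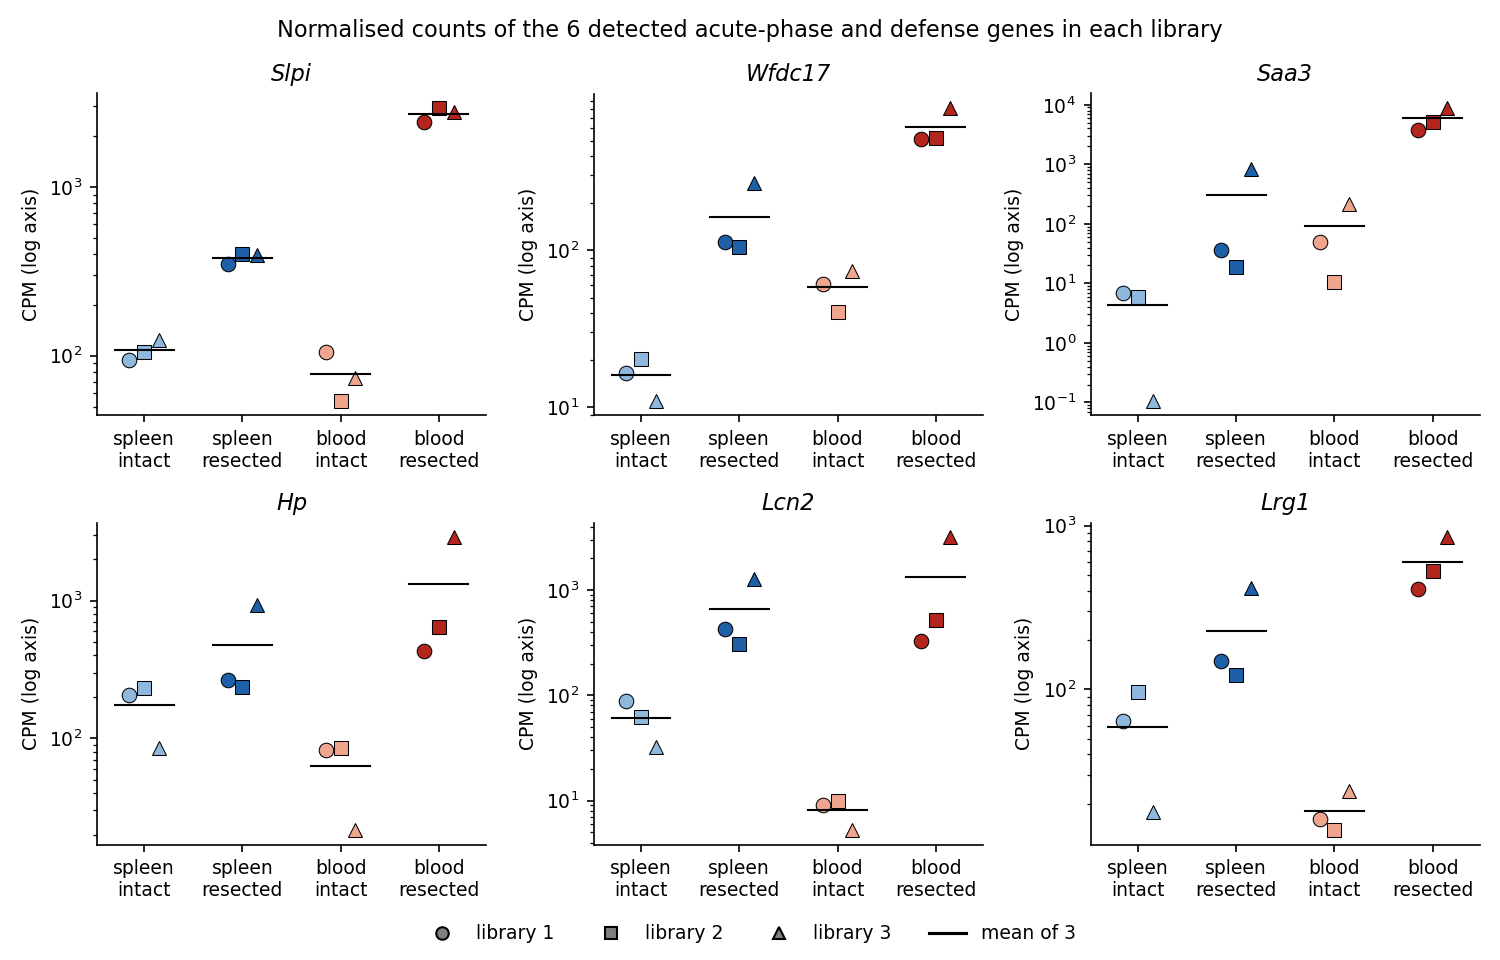
Levels of the 6 detected genes in each of the 12 libraries, in CPM on a log axis, with 1 symbol per library and a line at the arithmetic mean of the 3. Slpi libraries sit close together within each group except intact blood (54.0 to 105 CPM). In resected blood they run from 2410 to 2923 CPM, whereas Lcn2 there runs from 331 to 3152 CPM.

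Saa3 varied most between the libraries of intact and of resected spleen. Its levels were 6.92, 5.84 and 0.106 CPM in intact spleen, 36.2, 19.0 and 847 CPM in resected spleen, 49.0, 10.7 and 217 CPM in intact blood, and 3760, 5120 and 8776 CPM in resected blood. No intact library overlapped the resected ones of its tissue, but within resected spleen library 3 stood far above the other 2. The splenic difference (log2 fold change 6.13, SE 1.89, edgeR, adjusted p = 0.11) did not pass the test, and it was 2.68 (SE 1.33, adjusted p = 0.395) without resected spleen library 3. In blood the log2 fold change was 5.99 (SE 1.87, a description), and 7.61 (SE 2.31) without intact blood library 3. Blood exceeded spleen by 4.43 (SE 1.75, edgeR, adjusted p = 0.145) in intact mice, or 2.90 without intact blood library 3, and by 4.29 (SE 1.72, edgeR, adjusted p = 0.11) after resection, neither past the threshold. Without resected spleen library 3 the latter was 7.84 (SE 1.90, adjusted p = 0.0232).

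Lcn2 spread most of the 6 tested genes between the libraries of resected blood, with an SD of 1.72 on the log2 CPM scale, and much less in intact blood (0.49). It stood at 88.9, 62.4 and 32.6 CPM in intact spleen, at 423, 310 and 1264 CPM in resected spleen, at 9.11, 9.87 and 5.24 CPM in intact blood and at 331, 516 and 3152 CPM in resected blood. The resected groups of the 2 tissues overlapped, while intact blood lay below intact spleen. In spleen the log2 fold change of 3.44 (SE 0.90, edgeR, adjusted p = 0.0772) did not pass the test, and it was 2.58 (SE 0.86, adjusted p = 0.223) without resected spleen library 3. In blood it was 7.37 (SE 1.09, a description) and 5.73 (SE 0.71) without resected blood library 3. The lower level in intact blood than in intact spleen, by a log2 difference of -2.93 (SE 0.89, edgeR, adjusted p = 0.0691), did not pass either, although it did without resected blood library 3 (adjusted p = 0.0284). After resection the tissues differed by 1.00 (SE 0.83, edgeR, adjusted p = 0.433), a value that was -0.54 without resected blood library 3.

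Haptoglobin mRNA stood at 208, 233 and 84.6 CPM in intact spleen, at 267, 234 and 928 CPM in resected spleen, at 82.1, 84.6 and 21.6 CPM in intact blood and at 427, 641 and 2873 CPM in resected blood. In spleen the lowest resected library barely exceeded the highest intact one. The splenic log2 fold change was 1.44 (SE 0.85, edgeR, adjusted p = 0.365), and 0.51 (SE 0.84, adjusted p = 0.843) without resected spleen library 3. In blood the log2 fold change was 4.39 (SE 0.95, a description), and 3.10 (SE 0.78) without resected blood library 3. Blood against spleen gave -1.48 (SE 0.85, edgeR, adjusted p = 0.311) in intact mice and 1.46 (SE 0.85, edgeR, adjusted p = 0.253) after resection, with overlapping libraries in both. The latter was 0.28 without resected blood library 3 and 2.49 without resected spleen library 3.

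Lrg1 stood at 63.9, 96.1 and 17.8 CPM in intact spleen, against 148, 122 and 413 CPM in resected spleen. In blood it stood at 16.2, 13.8 and 23.9 CPM in intact mice and at 412, 529 and 847 CPM after resection. The resected libraries lay above the intact ones in each tissue. In spleen the log2 fold change was 1.94 (SE 0.63, edgeR, adjusted p = 0.123), or 1.19 (SE 0.58, adjusted p = 0.392) without resected spleen library 3, and in blood it was 5.05 (SE 0.73, a description). Blood against spleen gave -1.72 (SE 0.63, edgeR, adjusted p = 0.119) in intact mice and 1.39 (SE 0.62, edgeR, adjusted p = 0.147) after resection. The latter was 2.24 (SE 0.64, adjusted p = 0.0431) without resected spleen library 3.

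Ptx3 was not detectable above the limit of counting in most libraries. It had 0 counts in all 6 splenic libraries, 1, 0 and 0 counts in intact blood, and 2, 2 and 5 counts in resected blood. The 9 counts summed over resected blood have a 95% Poisson interval of 4.12 to 17.1, which covers counting error only. The promoter of Ptx3 holds a match to the same C/EBP-type motif as those of Slpi, Saa3 and Lcn2, with different matched letters.

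Over the tested genes, 2 of 6 (Slpi and Wfdc17) were called higher in spleen after resection, against 0.780% of all features, and 5 of 6 had an unadjusted p under 0.05. The libraries of all 6 lay higher after resection in spleen without overlap, as did 17.4% of all features. The median log2 fold change was 2.65 in spleen, where that of all features was 0.05. The genes were chosen with earlier results of these data known, so the splenic counts are not fully independent of that choice. In blood all 6 exceeded the thresholds for a higher call, which 7.80% of all features did, and did not overlap, as 19.4% did, with a median log2 fold change of 5.09 against -0.10 for all features. These blood counts come from the contrast that chose the genes and carry no further weight. Between the tissues, 1 of the 5 genes other than Slpi, Wfdc17, was called higher in blood in intact mice (3.86% of all features) and again after resection (6.28% of all features). These counts use the same blood libraries and are not independent of the choice of genes either. In intact mice Wfdc17 and Saa3 lay higher in blood without overlap, as did 13.6% of all features, and Lcn2 lay lower without overlap, as did 20.9%. After resection Wfdc17 and Saa3 again lay higher in blood without overlap, as did 17.2% of all features.

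**Figure D2:**
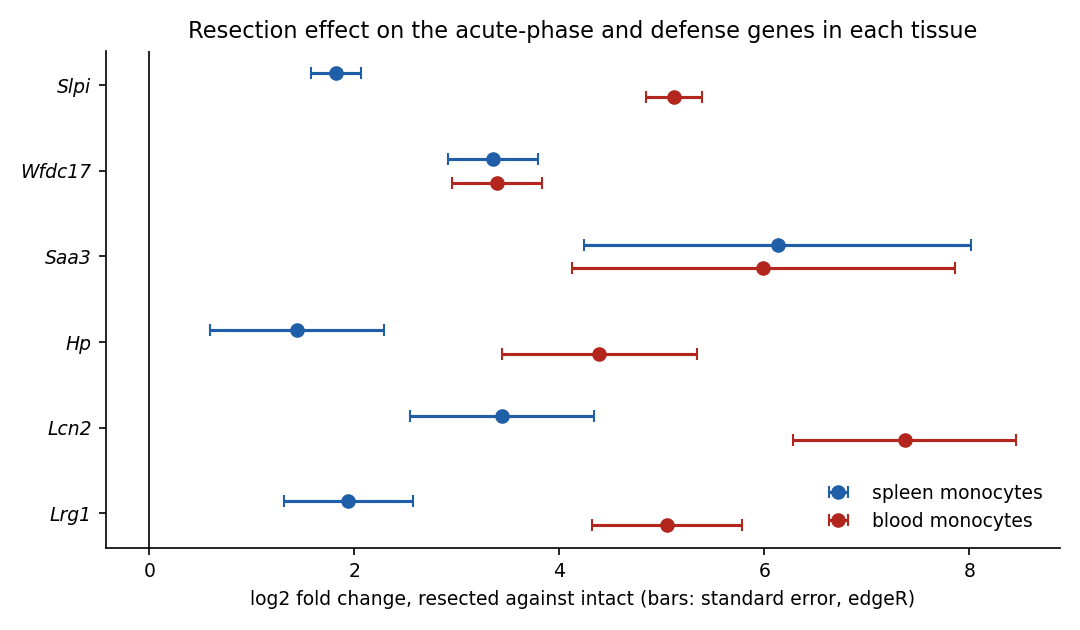
Log2 fold change after resection (points) with its standard error from edgeR (bars) for the 6 tested genes in splenic and blood monocytes. The 2 points nearly coincide for Wfdc17 (3.35 and 3.39) and, with SEs of 1.89 and 1.87, for Saa3 (6.13 and 5.99), while for Slpi they lie at 1.82 and 5.12.

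The resection effect in blood minus that in spleen, given as a description, was 3.30 (SE 0.33) for Slpi, 3.93 (SE 1.21) for Lcn2, 3.11 (SE 0.89) for Lrg1 and 2.95 (SE 1.20) for Hp. For Wfdc17 it was 0.04 (SE 0.57), and from -0.20 to 0.61 with any 1 library left out. The Saa3 value of -0.14 (SE 2.13) was too uncertain to place, and it was 3.31 without resected spleen library 3 and 1.49 without intact blood library 3. Without resected blood library 3 it was 2.31 for Lcn2 and 1.67 for Hp.

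Set against transcript length, in CPM per kb of the transcript, the order of the mean levels changed between groups. In intact spleen Hp (130 ± 59.1) and Slpi (123 ± 16.8) stood highest and differed by less than their spread, followed by Lcn2 (67.0 ± 30.8), Lrg1 (42.1 ± 28.0) and Wfdc17 (30.02 ± 8.86), neighbours whose ranges of 1 SD touch, and by Saa3 (7.73 ± 6.60). In intact blood the order was Saa3 (166 ± 198), Wfdc17 (110 ± 31.4), Slpi (88.6 ± 29.5), Hp (46.7 ± 26.5), Lrg1 (12.8 ± 3.75) and Lcn2 (8.82 ± 2.71), with overlap within 1 SD between each gene and the next except between Hp and Lrg1. In resected spleen it was Lcn2 (727 ± 570), Saa3 (542 ± 853), Slpi (434 ± 33.0), Hp (354 ± 291), Wfdc17 (306 ± 175) and Lrg1 (162 ± 114), each within the spread of the next. In resected blood Saa3 led with 10605 ± 4675 CPM per kb and Slpi followed with 3079 ± 299. Lcn2 (1457 ± 1725), Wfdc17 (1147 ± 316), Hp (977 ± 1007) and Lrg1 (423 ± 160) came next, and only Wfdc17 and Lrg1 of these 4 lay apart from each other by more than their SD.

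The 6 genes differed in how far their libraries agreed. Within resected blood the highest library exceeded the lowest 1.21-fold for Slpi, 1.58-fold for Wfdc17, 2.06-fold for Lrg1, 2.33-fold for Saa3, 6.72-fold for Hp and 9.53-fold for Lcn2. Library 3 was the highest for 5 of the 6 genes in resected blood and for 5 of the 6 in resected spleen, with Slpi the exception in both.

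Neutrophil markers also differed between the libraries. The summed level of 16 of them, among them Ly6g, Camp, Ngp, S100a8 and S100a9, was 2550, 2263 and 1467 CPM in intact spleen, 6544, 6031 and 16831 CPM in resected spleen, 590, 681 and 212 CPM in intact blood and 4780, 6002 and 22931 CPM in resected blood. Of the 16 markers, 16 were called higher after resection in blood and 3 in spleen (Ly6g, Ltf and Padi4), against 7.80% and 0.780% of all features. The defining marker Ly6g averaged 1.23 and 25.8 CPM in intact and resected blood. Some of the markers, such as S100a8, S100a9 and Csf3r, are also expressed by monocytes.

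Lcn2 ordered the 3 libraries as the neutrophil sum did in 4 of 4 groups, Hp and Saa3 in 3, Wfdc17 and Lrg1 in 2, and Slpi in 0. For the sum of 9 peritoneal macrophage markers, mostly Fn1, the same count was 3 for Hp, Wfdc17 and Lrg1, 2 for Lcn2 and Saa3, and 0 for Slpi. Slpi libraries differed 1.31-fold or less within each group but intact blood (1.95-fold), so their order rests on small differences. Over the 12 libraries, log2 CPM correlated with the log2 neutrophil sum at r = 0.99 for Lcn2, 0.95 for Hp and 0.89 for Lrg1. The coefficient was 0.75 for Slpi, 0.60 for Wfdc17 and 0.46 for Saa3. As a share of the neutrophil sum, Hp was 10.2% to 13.9% in intact blood and 8.94% to 12.5% in resected blood, and 5.77% to 10.3% and 3.88% to 5.52% in intact and resected spleen, where it was lower after resection without overlap. Lcn2 was 1.45% to 2.47% of it in intact and 6.92% to 13.7% in resected blood, and 2.22% to 3.49% and 5.14% to 7.51% in intact and resected spleen. Saa3 was 1.57% to 103% of the sum in intact and 38.3% to 85.3% in resected blood, Wfdc17 5.95% to 34.8% and 3.51% to 10.7%, and Lrg1 2.03% to 11.3% and 3.69% to 8.82%. Slpi ranged from 7.94% to 34.7% of it in intact and from 12% to 50.4% in resected blood, where its level ran from 2410 to 2923 CPM. Without library 3 of both resected groups, the log2 fold change in blood was 5.13 for Slpi, 5.73 for Lcn2, 5.67 for Saa3, 4.75 for Lrg1, 3.17 for Wfdc17 and 3.10 for Hp. The neutrophil sums of the resected blood libraries kept there, 4780 and 6002 CPM, were themselves above the 212 to 681 CPM of intact blood. In spleen the same choice gave 2.77 for Wfdc17 (edgeR, adjusted p = 0.0396) and 1.79 for Slpi (edgeR, adjusted p = 0.0702). The part of neutrophil RNA in the values of these genes was not tested.

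**Figure D3:**
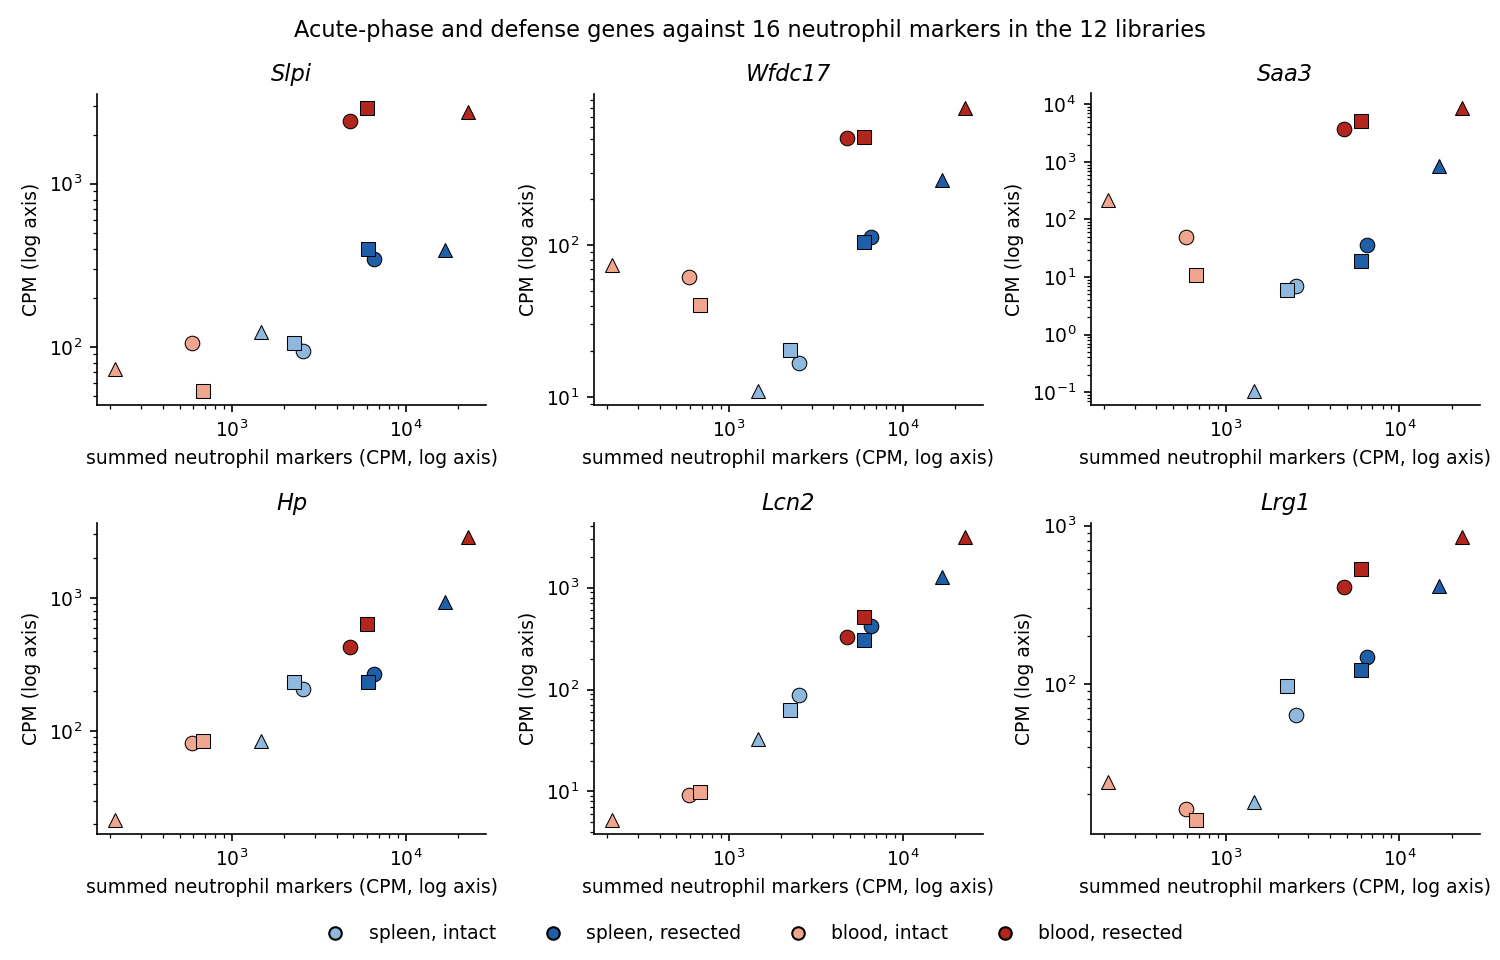
Level of each gene (CPM, log axis) against the summed level of 16 neutrophil markers (CPM, log axis), with 1 point per library and colours for the 4 groups. Lcn2 and Hp rise along the marker sum over all 12 libraries (r = 0.99 and 0.95), and Slpi does so less closely (r = 0.75). Within resected blood Slpi stays between 2410 and 2923 CPM while the sum runs from 4780 to 22931 CPM.

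Markers of other cells also differed between the groups. The summed level of 9 peritoneal macrophage markers was 355 to 502 CPM in intact spleen, 358 to 1813 CPM in resected spleen, 3570 to 7234 CPM in intact blood and 18731 to 23807 CPM in resected blood, mostly as Fn1. Of these markers 7 of 9 were called higher in blood after resection, against 7.80% of all features. In intact and resected blood Prg4 stood at 313 and 1663 CPM, Alox15 at 192 and 2584 CPM and Gata6 at 4.16 and 21.0 CPM. In spleen none of the 9 was called, and their median log2 fold change was -0.74. The highest sum in spleen belonged to resected spleen library 3, the one with the high Saa3. The part of such cells in the Saa3 and Slpi values was not tested. Hepatocyte markers summed to 0.204 to 0.244 CPM in resected blood, with 10 of 12 markers at 3 counts or fewer in every library, and to 0.0417 to 0.221 CPM in spleen. In intact blood library 3 they summed to 3.93 CPM, against 0.0257 and 0.110 CPM in the other 2. Mesothelial markers summed to 1.23 to 2.02 CPM in intact and 1.94 to 2.56 CPM in resected spleen. In blood they summed to 1.79 to 3.78 CPM in intact and 7.37 to 8.02 CPM in resected mice, without overlap. None of the 6 tested was called higher in blood after resection, against 7.80% of all features.

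The genes whose log2 CPM followed Slpi most closely over the 12 libraries, among 8996 features with a mean of at least 10 CPM, were Kcnk13 (r = 0.986), Rxylt1 (0.983), Gaa (0.983), Ninj1 (0.980) and Cd68 (0.979). Gaa encodes a lysosomal glucosidase, Cd68 a lysosomal glycoprotein of macrophages and Ninj1 a membrane protein that ruptures dying cells. Cd68 stood at 394 to 480 CPM in resected blood, 164 to 235 CPM in resected spleen and 77.7 to 132 CPM in the intact groups. None of the other 5 genes was as close. Lrg1 ranked 272 (r = 0.89), Wfdc17 ranked 369 (0.88), Lcn2 717 (0.82), Hp 832 (0.80) and Saa3 929 (0.78). These coefficients are descriptions over libraries that fall into 4 groups, of which resected blood lay apart for Slpi.

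Further genes of the same functions were read from 6 lists with 162 genes in all, of which 117 were tested. The lists were chosen with earlier results of these data known, so their shares are a description and not independent evidence. In blood after resection 70 of the 117 (59.8%) were called higher and 2 lower, against 7.80% and 6.11% of all features, with a median log2 fold change of 2.03. In spleen 13 of the 117 (11.1%) were called higher, against 0.780% of all features, with a median of 1.09. The spleen count was 0 without intact spleen library 1 or 2, resected spleen library 3 or resected blood library 2, 1 to 7 without any 1 of 6 other libraries, and 28 without intact blood library 3. The splenic calls of the listed genes named here were each lost in 6 to 16 of 20 alternatives, and without resected spleen library 3 that of Nos2 was 6.44 in place of 8.92. The effects in blood and spleen differed in the test of the difference for 2 of the 117, both with the larger rise in blood, against 0.219% of all features.

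Of 29 acute-phase genes 18 were tested, and 11 were called higher in blood and 2 in spleen. The metallothioneins Mt1 and Mt2, which bind zinc, rose in both tissues, Mt1 by 4.09 (SE 0.53, edgeR, adjusted p = 0.00136) in blood and by 2.62 (SE 0.49, edgeR, adjusted p = 0.0366) in spleen. Lbp, which carries bacterial lipopolysaccharide to Cd14, went from 2.27 ± 1.31 to 101 ± 24.3 CPM in blood (SD, n = 3, edgeR, adjusted p = 0.00377). The ferritin light chain Ftl1 went from 1764 ± 668 to 5662 ± 579 CPM in blood (SD, n = 3, edgeR, adjusted p = 0.0035). Among genes best known from liver, Orm1 (log2 fold change 7.86, edgeR, adjusted p = 0.0106) and Serpina3n (4.32, edgeR, adjusted p = 0.0235) were also called higher in blood, at 2.79 to 84.8 and 1.68 to 5.80 CPM after resection. Both were named after their values were seen, so these p-values describe genes picked from the same contrast. Serpina3n averaged 0.149 CPM in intact blood, close to the limit of counting. Crp had 0 counts in every library, Apcs had at most 1, and Saa1, the main circulating serum amyloid A, was at least 84.7-fold higher in resected than in intact blood and averaged 6.99 CPM there, carried by library 3 at 17.8 CPM, without which it was at least 19.0-fold higher. Saa3 averaged 5886 ± 2594 CPM in the same group (SD, n = 3). Reads shared between close paralogs of this family could have been split by the counting.

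Of 25 antimicrobial genes 22 were tested, and 17 were called higher in blood and 3 in spleen. Of the 22, 8 are also among the neutrophil markers, and of the other 14 there were 9 called higher in blood. Slc11a1, a phagosomal metal transporter, rose by 2.77 (SE 0.28, edgeR, adjusted p = 0.000616) and Acod1, which makes itaconate, by 8.19 (SE 0.99, edgeR, adjusted p = 0.00113) in blood. Ltf (lactoferrin) and the granule protease gene Prtn3 rose in both tissues, Ltf by 3.00 and 1.89 and Prtn3 by 5.00 and 3.44 in blood and spleen. Nos2, the inducible nitric oxide synthase, was at least 517-fold higher in resected blood, at 5.40 to 111 CPM, and at least 102-fold without library 3, the highest. In spleen it rose by 8.92 (SE 1.83, edgeR, adjusted p = 0.0431), from a mean of 0.0771 CPM in intact spleen, close to the limit of counting. That call was lost in 12 of 20 alternatives, and the rise was 6.44 without resected spleen library 3.

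The remaining WAP genes were mostly silent, with 4 of 20 tested. Among them Wfdc21 rose in blood by 7.19 (SE 0.83, edgeR, adjusted p = 0.000982), from 0.883 ± 0.445 to 129 ± 111 CPM, and in spleen by 3.67 (SE 0.70, edgeR, adjusted p = 0.0366), from 5.53 ± 1.35 to 70.6 ± 50.1 CPM (SD, n = 3). In the RefSeq annotation Wfdc17, Wfdc18 and Wfdc21 follow one another on chromosome 11, after Ccl3 and Ccl4. Wfdc18, between the other 2, stayed at or below 0.883 CPM in all libraries.

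Of 32 other antiprotease genes 20 were tested, and 11 were called higher and 2 lower in blood and 3 higher in spleen. Serpinb2, a serine protease inhibitor of macrophages, rose by 4.34 in blood (SE 0.41, edgeR, adjusted p = 0.000491). The stefin genes Stfa2 and Stfa3, which encode cysteine protease inhibitors, rose in both tissues, and Stfa3 was at least 191-fold higher in resected blood, or at least 47.5-fold without library 3, the highest. Cstb rose by 2.51 in blood, where Stfa2l1 rose by 6.06, and by 4.78 without resected blood library 3. Spint2 (-2.03, SE 0.54) and Serpinb6b (-1.35, SE 0.36) fell in blood, calls that were lost in 7 and 6 of 20 alternatives, and Spint2 was at -0.89 without intact blood library 3. The stefins form a family of near copies, so their separate values are uncertain.

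Of 31 inducers and regulators of these genes 29 were tested, and 15 were called higher in blood and 3 in spleen. Il1a went from 3.06 ± 0.885 to 1364 ± 547 CPM in blood (SD, n = 3, edgeR, adjusted p = 0.000623), and Tnf rose by 6.16 in blood and 3.25 in spleen. Osm, a cytokine of the interleukin-6 family, rose by 3.59 in blood (SE 0.44, edgeR, adjusted p = 0.00124), whereas in spleen its log2 fold change was -0.15. Nfkbia, the inhibitor and target of NF-kB, rose by 2.74 in blood and 2.00 in spleen.

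Of 27 receptors, ligands and partners of the 7 gene products 26 were tested, and 16 were called higher in blood and 1 in spleen. Genes that act with haptoglobin were among them. Cd163, the receptor of the haptoglobin and haemoglobin complex, went from 19.0 ± 1.87 to 242 ± 28.2 CPM in blood (SD, n = 3, log2 fold change 3.67, SE 0.46, edgeR, adjusted p = 0.00131). Hmox1, which degrades haem, rose by 4.0 in blood (SE 0.36, edgeR, adjusted p = 0.000428) and by 1.79 in spleen (SE 0.33, edgeR, adjusted p = 0.0345). Granulin (Grn), which Slpi protects from elastase, rose by 1.97 in blood (SE 0.21, edgeR, adjusted p = 0.000717). The formyl peptide receptor Fpr1 rose by 5.58 in blood (SE 0.89, edgeR, adjusted p = 0.00322), and by 4.47 without resected blood library 3.

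**Figure D4:**
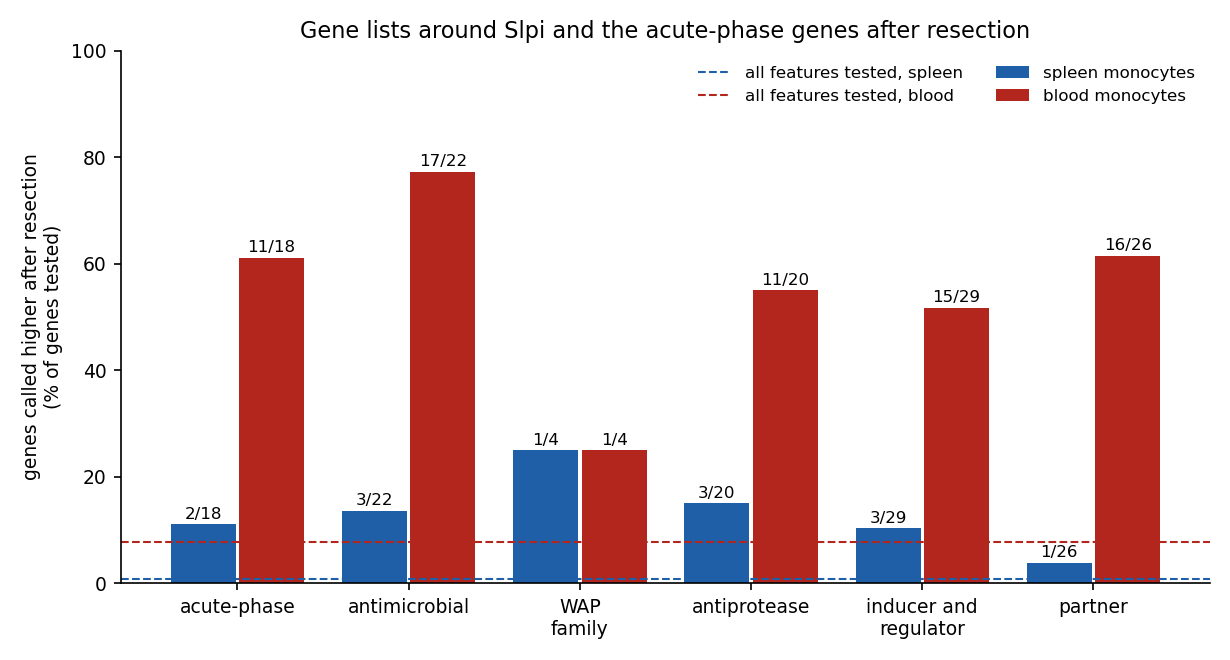
Share of tested genes of each list called higher after resection (bars, with counts above them) in splenic and blood monocytes, beside the share of all features tested (dashed lines, 0.780% in spleen and 7.80% in blood). The antimicrobial list has the tallest bar in blood, with 17 of 22 genes.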

How the data were processed

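RNA-seq was done on 12 libraries of CD115+ monocytes, 3 per group, grouped by the sample labels. The authors deposited estimated counts per gene or transcript, with up to 3 decimals and no scaling. The submitters' processing notes name STAR and the build GRCm39, and the counting tool and annotation are not given in the sources used here. The labels describe a strand-specific library, and the labels and the methods name different sequencers. Each table had 67088 entries. Of these, 2558 unassigned entries (1.75% to 4.33% of a library) were left out, 25340 accessions were matched to symbols with the RefSeq table of GRCm38.p6 (names and neighbours only), and 14934 kept their accession. Counts were summed per gene (52553 features) and rounded.

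edgeR 4.0.16 in R 4.3.3 was used with filterByExpr (20135 features), TMM scaling and a robust quasi-likelihood fit over 12 libraries and 4 groups. Called genes had an adjusted p (Benjamini-Hochberg, over all features) under 0.05 together with a log2 fold change beyond 1 in either direction. The SE is the absolute log2 fold change divided by the square root of F. CPM are counts for every 1000000 of the TMM-scaled library. A group with at most 3 counts in every library (0.0626 to 0.102 CPM) was at the limit of counting, and folds against it are lower bounds from that limit in the group's least scaled library, which cover counting error alone because no molecular identifiers were used. Transcript lengths came from GENCODE vM21. Libraries of a group differed beyond counting noise (chi-square over its degrees of freedom 19.7 to 560), so each counted as 1 replicate. Each library pools mice, so p-values measure the spread between pools.

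The 7 genes, the lists and the tests were chosen with earlier results of these data known. No p is given for the 7 genes in blood or for the difference between the tissues' effects, nor for Slpi between tissues, and their count past the thresholds in blood is a description. The tests of the other genes between tissues use the same blood libraries and are not independent of the choice of genes. Named list genes are, per list, up to 4 per direction with the smallest p among those called in blood and up to 3 in spleen, besides marker genes, Csf1r and the 5 genes most like Slpi. One gene that this rule names, counted in the list totals, is not reported here. Saa1, Orm1, Serpina3n, Crp, Apcs and Wfdc18 were named after their values were seen. Alternatives were DESeq2 1.42.0, RLE factors, no filter, only the 2 groups compared, haemoglobin genes left out, unsummed entries, a replicate block and leaving out each library. Leaving out library 3 of both resected groups was added after seeing the data. Scripts were tested on simulated counts. Figures were drawn with matplotlib 3.10.9.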

Additional observations from a re-analysis of the deposited data

Results flagged for a closer look

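Among the listed genes, Osm had a resection effect that differed between blood and splenic monocytes in the test of the difference itself. The effect in blood exceeded that in spleen by 3.73 on the log2 scale (SE 0.59, edgeR quasi-likelihood test, adjusted p = 0.0433), at 199 to 371 CPM in resected and 13.2 to 30.3 CPM in intact blood against 28.1 to 65.1 and 43.9 to 73.3 CPM in resected and intact spleen. Over 19 alternatives the call was lost in 13 (3.39 to 4.13).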

How the results depend on the processing

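Every direction of the 6 tested genes after resection was the same under all 20 alternatives in both tissues. The listed genes called in blood numbered 59 to 75 around 72. Splenic calls depended on the settings. The 2 of the 7 genes called in spleen became 5 with DESeq2, 1 without library 3 of both resected groups and 0 to 3 when 1 library was left out. The 13 listed genes became 42 with DESeq2, 3 without a filter, 3 with only the 2 groups compared, 6 with the replicate block, 4 without library 3 of both resected groups and 0 to 28 when 1 library was left out. Where these splenic counts were 0 in edgeR, 5 of the 7 genes and 43 to 62 listed genes had an unadjusted p under 0.05. Over all features 277 were called in spleen, 1564 with DESeq2 and 1 without intact spleen library 1. Between intact tissues the count of 1 gene other than Slpi became 4 with DESeq2, 2 with only the 2 groups compared, 2 without library 3 of both resected groups and 0 to 2 with 1 library left out. After resection the count of 1 became 3 with DESeq2, 2 without library 3 of both resected groups and 1 to 3 with 1 library left out. The 2 listed genes whose effect differed between tissues became 31 with DESeq2, 1 without a filter, 0 with the replicate block (edgeR), 0 without library 3 of both resected groups (edgeR) and 0 to 6 with 1 library left out, with 33 to 48 at an unadjusted p under 0.05 where the count was 0. The difference between tissues for Saa3 (-0.14) was 3.31 without resected spleen library 3, 2.99 without library 3 of both resected groups, 2.76 with the replicate block and 1.49 without intact blood library 3, and for Wfdc17 (0.04) it ran from -0.20 to 0.61 with 1 library left out. Values of opposite sign appeared for Lcn2 between resected tissues (-0.54 without resected blood library 3, up to 1.96 without other libraries), for Nos2 in the difference between tissues (-0.59 without the same library, up to 4.16) and for Osm in spleen (0.09 without intact library 2 and 0.14 without resected library 1, down to -0.37). The cause of these shifts was not tested.

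Same-numbered libraries did not deviate together (correlations from -0.05 to 0.05, and 0.04, 0.13 and 0.19 between resected tissues), so the numbers were not taken as pairs. A library's best match was its own number in 6 of 12 cases, and the replicate block changed no call of the 6 tested genes. The depth limits Ptx3, Crp and Apcs, with at most 5 counts in any library.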
